A study of Bos taurus with 6 samples.

Results

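The genes described here are 90 abundant bovine genes whose level was modestly higher in the miR-29c inhibitor group, out of the 29154 genes listed for each library. They were chosen from the values themselves. A member carries an older Ensembl identifier, numbered up to 48297 in these files, where the newer ones begin at 48302. It has a mean of at least 32 CPM (the count of a gene multiplied by 1000000 and divided by the total count of its library) over the 4 libraries, and a lowest miR-29c inhibitor CPM of at least 1.1 times its highest NC inhibitor CPM. That last ratio is called the step. Of 20601 genes with such an identifier, 5580 passed the limit on abundance, and 90 of these passed the step. Since the step uses the difference between the groups, that difference is described for the members and is not tested.

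The cells were bovine mammary epithelial cells, the MAC-T line according to the methods of the study, an established line and so a single source of cells. Either the miR-29c inhibitor or a negative control, called the NC inhibitor, was transfected at 100 nM into wells of one plate, and the cells were collected after 48 h. The labels give 3 wells per group. The libraries numbered 1 and 2 in both groups were used, and those numbered 3 were not used here. The wells share a plate and a thawed stock, so the spread between libraries may be technical. Total counts on genes were between 14479278 and 16213226 in the 4 libraries.

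MicroRNAs are short RNAs that pair with messenger RNAs, mostly through a seed near their own start, and lower the stability or translation of those messengers. An inhibitor is an antisense molecule that occupies the microRNA, so that direct targets may rise when it is present, and further genes may rise or fall after them. The miR-29 family is known for targets among collagens, other matrix genes and enzymes of DNA methylation. In bulk RNA, fewer cells of a type and less RNA per cell cannot be told apart.

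The files give identifiers without symbols. In the RefSeq gene table of assembly ARS-UCD2.0, 0 of the 90 members and 0 of all 29154 genes were matched. A symbol was paired with 1 member, UBE2S, through the study's own list of differentially expressed genes, and 89 members have none. The 26 lists of pathways, microRNA-29 targets and cell type markers could therefore not be counted among the members, beyond UBE2S in the list of ubiquitin conjugation genes. For the same reason the labelled cell type was not checked against its keratin markers. Apart from a few identifiers, members are named below by their rank.

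UBE2S (ENSBTAG00000009211), a ubiquitin-conjugating enzyme that lengthens ubiquitin chains on substrates of the anaphase-promoting complex in mitosis, had the largest step of the members, 1.65. Its counts in replicates 1 and 2 were 1022 and 1054 with the NC inhibitor, and 1700 and 2326 with the miR-29c inhibitor. As CPM these were 70.6 and 65.0 against 117 and 148, so that both miR-29c inhibitor libraries stood above both NC inhibitor libraries, with replicate 2 the higher of the miR-29c inhibitor pair. The group means were 67.8 ± 3.94 and 133 ± 22.4 CPM (SD, n = 2 libraries each), a ratio of 1.96. The spread between the miR-29c inhibitor libraries was the wider, and the lower of them was still 1.72 times the NC inhibitor mean.

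The member with the second largest step, ENSBTAG00000001996, lay close to the limit on abundance, with a mean of 32.8 CPM. Its CPM was 25.3 and 26.3 with the NC inhibitor, and 37.6 and 42.1 with the miR-29c inhibitor, with a step of 1.43 and no overlap between groups. This gene had 366 counts in NC inhibitor replicate 1, the lowest count of any member in any library. The most abundant member, ENSBTAG00000008103, had 2857 and 2798 CPM with the NC inhibitor, and 3212 and 3528 CPM with the miR-29c inhibitor. Its step was 1.12 and it ranked 19 by mean CPM among the 5580 genes. These genes show the range of the members, from a level near the limit to one among the highest of the 5580 genes.

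**Figure D1:**
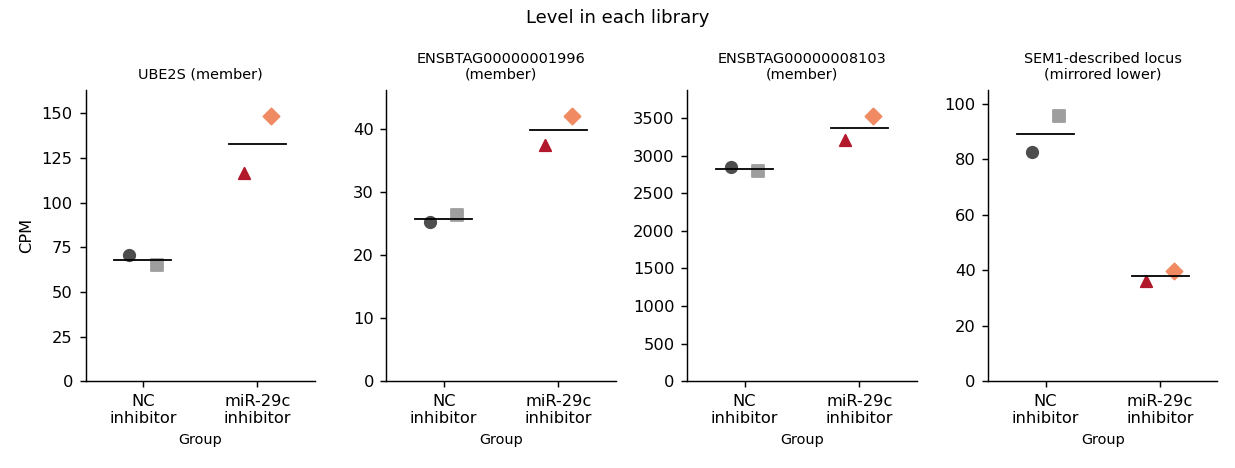
CPM in each library (y axis, from 0) for UBE2S, the member with the second largest step, the most abundant member and, for contrast, the SEM1-described locus of the mirrored lower genes, by group (x axis). Points are single libraries and bars are the means of 2, and in each member both miR-29c inhibitor points lie above both NC inhibitor points, as for UBE2S at 117 and 148 against 70.6 and 65.0 CPM.

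Large steps were found at low and at higher levels alike. The third by step had 122.7 and 115.2 CPM with the NC inhibitor, and 169.7 and 200.4 CPM with the miR-29c inhibitor. The fourth by step had 130 and 129 CPM against 177 and 186 CPM, and the sixth had 105 and 102 CPM against 140 and 140 CPM, so that the replicates of these genes lay closer together than those of UBE2S. The fifth by step had 31.6 and 29.9 CPM against 46.1 and 42.3 CPM, near the limit on abundance. Steps of 1.3 or more were found in 6 members and of 1.2 or more in 13 members. The remaining 77 members had steps under 1.2, and the median step was 1.13.

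Members just inside and just outside the limit on the step differed little. The 3 smallest steps among the members were 1.10105, 1.10155 and 1.1017. The 3 largest steps that fell short were 1.09996, 1.09932 and 1.09899. The first of these had counts of 1261 and 1299 with the NC inhibitor and of 1395 and 1592 with the miR-29c inhibitor, and its ratio of group means was 1.18, near the median of the members. The list of 90 is thus a section of a continuous range of values.

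Taken over the 90 members, the ratio of the miR-29c inhibitor mean to the NC inhibitor mean had a median of 1.19, with quartiles of 1.16 and 1.25. It ran from 1.12 to 1.96, and 23 members had a ratio of 1.25 or more. No member reached a ratio of 2, and 0 of the 5580 genes of like abundance did. Over those 5580 genes the median ratio was 0.994. Since the rule sets a lower limit on each member, the distance between these medians is a property of the choice.

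In each miR-29c inhibitor library the members were compared with the NC inhibitor mean. The median ratio was 1.17 in replicate 1, with a range from 1.11 to 1.72. In replicate 2 it was 1.21, with a range from 1.11 to 2.19. Of the 90 members, 63 were higher in miR-29c inhibitor replicate 2 than in replicate 1, and 44 were higher in NC inhibitor replicate 2 than in replicate 1. Among the 5580 genes these counts were 2965 and 2705. The larger ratios of the members were thus found more often in miR-29c inhibitor replicate 2, while the NC inhibitor libraries were nearly even.

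**Figure D2:**
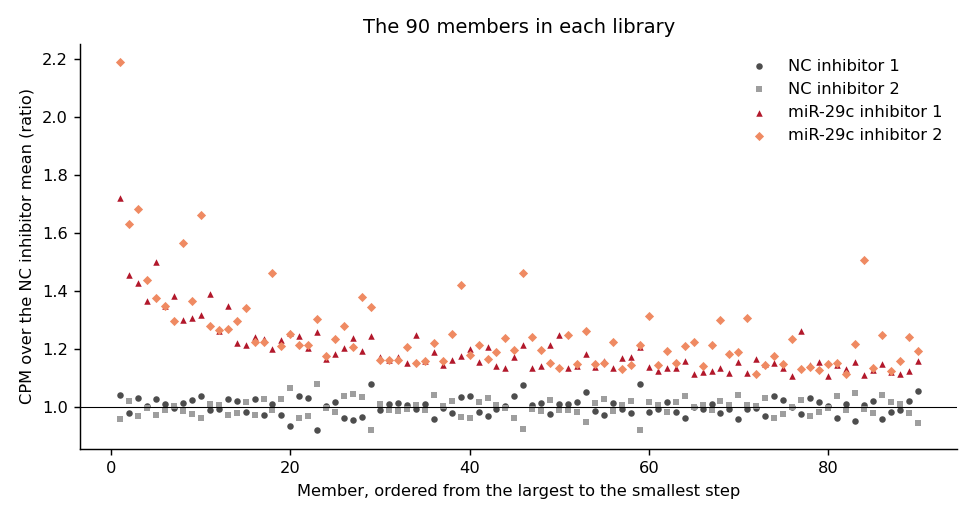
CPM of each of the 90 members divided by its NC inhibitor mean (y axis), with the members ordered by step (x axis) and 1 point per library. The NC inhibitor points lie around 1, the miR-29c inhibitor points lie above them in all members by the rule, and replicate 2 is the higher of that pair in 63 of 90.

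The distance between replicates was small beside the step for most members. The median coefficient of variation of the members was 2.70% between the NC inhibitor libraries and 3.12% between the miR-29c inhibitor libraries. Over the 5580 genes these values were 3.09% and 2.90%. In 76 of 90 members the gap between the groups was larger than the distance between the replicates of either group, and in 14 it was not. Since the rule sets a lower limit on this gap, these counts are largely a property of the choice. A replicate ratio of 1.1 or more, in either direction, was found for 8 members between the NC inhibitor libraries and for 18 members between the miR-29c inhibitor libraries. In 16 of those 18 it was replicate 2 that was higher. Over the 5580 genes, such ratios were found for 903 genes between the NC inhibitor libraries and for 832 genes between the miR-29c inhibitor libraries, and replicate 2 was the higher in 479 of the latter.

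Depth set how closely the level of single genes could be read. Counts of members ran from 366 to 55272 per library. At 366 counts the counting error alone (1 SD) is 5.23% of the level, and at 777.5 counts, the median over members of their lowest library, it is 3.59%. These errors cover counting only. Steps just above and just below the limit of 1.1 differ by less than this error.

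By abundance, the members had a median mean CPM of 59.5, with quartiles of 41.0 and 97.6, while the 5580 genes had a median of 74.7. Between 32 and 64 CPM, 47 of 2321 genes were members (2.02%), and between 64 and 128 CPM, 29 of 1757 genes (1.65%). Between 128 and 256 CPM there were 8 of 897 genes (0.892%), and from 256 CPM upwards 6 of 605 genes (0.992%). The share of members was thus under 1% from 128 CPM upwards, and the reason was not tested. Genes that were lower by the same limits turned round made 1.68%, 1.2%, 1% and 0.165% of these bands. A fall with abundance was therefore not particular to the members.

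A wide gap separated the 6 most abundant members from the others. Their mean CPM was 3099, 1525, 1455, 967, 738 and 592, and the next member had 195 CPM. They held between 58.3% and 59.6% of the members' counts in each library. Their ratios of group means lay between 1.13 and 1.33 with a median of 1.19, which was also the median of the other 84 members. The fifth by abundance had 648 and 656 CPM with the NC inhibitor, and 823 and 825 CPM with the miR-29c inhibitor, with hardly any distance between replicates. The sixth had 512 and 503 CPM against 609 and 742 CPM, so that its miR-29c inhibitor replicates differed by more than the gap between the groups.

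Together the members took 1.29% and 1.28% of all counts with the NC inhibitor, and 1.504% and 1.594% with the miR-29c inhibitor. The difference of the group means amounts to 2632 CPM, of which the 6 most abundant members made 55.0% and the other 84 made 45.0%. The whole set of 5580 genes took between 87.4% and 87.6% of the counts in every library.

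**Figure D3:**
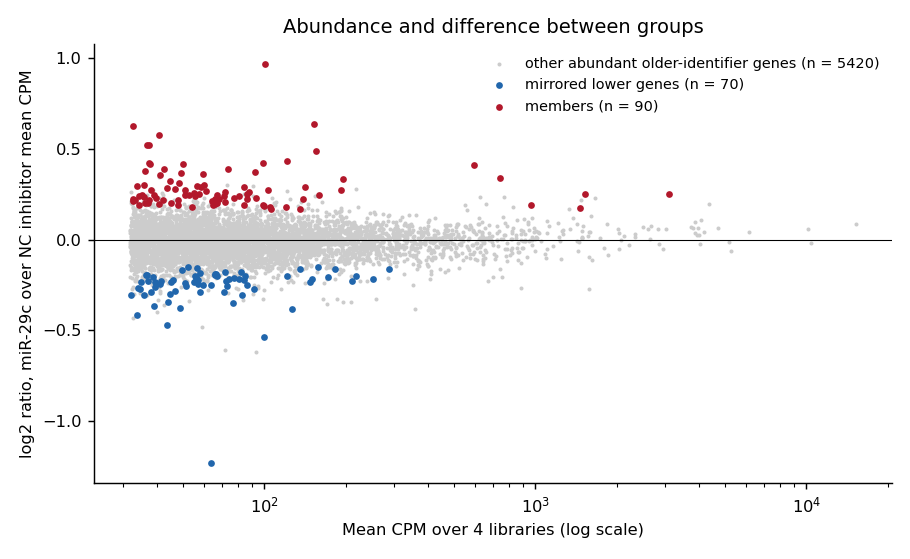
Log2 ratio of the group mean CPM (y axis) against mean CPM over 4 libraries (x axis, log scale) for the 5580 abundant older-identifier genes, each point a gene. The 90 members lie above 0 and the 70 mirrored lower genes below 0 by the rule, 6 members lie at 592 CPM or more, and no mirrored gene lies beyond 289 CPM.

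With the same limits turned round, 70 genes were lower with the miR-29c inhibitor. The members made 1.61% of the 5580 genes and the mirrored lower genes 1.25%. The median of the step was 1.13 in the members and 1.12 in the mirrored genes, and steps of 1.2 or more were found in 13 members and 6 mirrored genes. In abundance the medians were alike, at 59.5 and 57.9 CPM, but the most abundant mirrored gene, ENSBTAG00000006882, had a mean of 289 CPM, with 308 and 303 CPM under the NC inhibitor and 274 and 272 CPM under the miR-29c inhibitor. Among the 100 most abundant of the 5580 genes were 4 members and 0 mirrored genes. The mirrored genes summed to 916 CPM less in the miR-29c inhibitor group, a smaller total than the members' difference.

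The largest step of the mirrored genes, 2.08, belonged to ENSBTAG00000034496, a locus that the study's list describes as proteasome subunit SEM1, a small part of the proteasome lid. It had 82.7 and 95.6 CPM with the NC inhibitor, and 36.2 and 39.8 CPM with the miR-29c inhibitor. A locus with a newer identifier and the symbol SEM1 (ENSBTAG00000052508), outside the limits used here, had 52.8 and 45.0 CPM against 114 and 120 CPM. How reads were shared out between both loci was not tested, and each value is uncertain. The next mirrored gene, ENSBTAG00000008293, had 52.2 and 49.1 CPM against 39.4 and 33.7 CPM, with a step of 1.25. Without the SEM1 locus, the steps of the mirrored genes ended at this value, and without UBE2S those of the members ended at 1.43. With UBE2S included, 12 members had steps above 1.25. The largest step of either set was that of the SEM1 locus.

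Whether more genes were higher than lower depended on where the limit was set. With a limit of 5% in place of 10%, 293 genes were higher and 409 lower, so that the order was turned, and with 20% there were 13 higher and 6 lower. With no overlap at all between groups as the only condition, 1084 genes were higher (19.4%) and 1416 lower (25.4%). The order was also turned when 1 library was left out and the rule was applied to the other 3. Leaving out an NC inhibitor library gave 228 higher and 239 lower genes for replicate 1, and 233 and 369 for replicate 2. Leaving out a miR-29c inhibitor library gave 306 and 392 for replicate 1, and 138 and 207 for replicate 2. Scaling moved it in the other way. With TMM-scaled library sizes 108 genes were higher and 51 lower, and with the size factors of DESeq2 113 and 48, so that the higher genes made 56.2% of both with the plain library total, 67.9% with TMM and 70.2% with DESeq2. All 90 members met the rule under both scalings, as did 51 and 48 of the 70 mirrored genes. Both scalings raised the level of the miR-29c inhibitor group relative to the NC inhibitor group. The median log2 ratio of the members was 0.249 with the plain total, 0.258 with TMM and 0.262 with DESeq2. Higher genes thus passed more easily and lower genes less easily, so these counts do not compare how firm the 2 sets are.

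The rule was also read on the 2 other ways to compare these 4 libraries 2 against 2, as a description of how many genes it returns where the groups are mixed. For both libraries numbered 2 against both numbered 1, 27 genes were higher (0.484%) and 15 lower (0.269%). For NC inhibitor replicate 2 and miR-29c inhibitor replicate 1 against the remaining libraries, 7 genes were higher (0.125%) and 18 lower (0.323%). The median abundance of these sets was between 36.8 and 51.1 CPM, below the 59.5 CPM of the members, and their highest mean was 287 CPM. Their median steps were all near 1.12, close to the 1.13 of the members. Steps of 1.2 or more were found in 1 gene of each of these comparisons, a lower one, and in 13 members. The libraries are shared by all 3 comparisons, and no test was made on these counts.

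**Figure D4:**
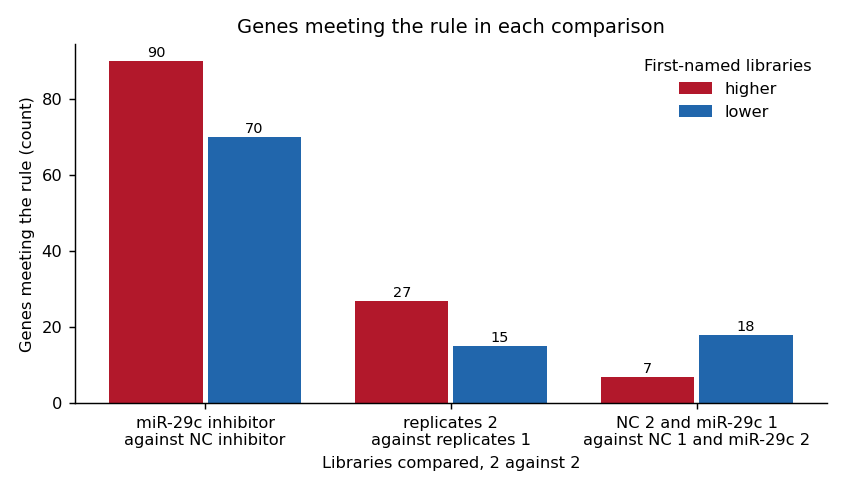
Number of genes meeting the rule (y axis, from 0) in each of the 3 comparisons of 2 libraries against 2 (x axis), higher or lower in the libraries named first. The comparison of the groups gave 90 and 70 genes, and the mixed comparisons gave 27 and 15, and 7 and 18.

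Since all 4 libraries enter the rule, a reading in libraries that took no part in the choice needs a choice on fewer libraries. This was added after the data had been seen. Between the libraries numbered 1, 359 of 5571 genes with an older identifier and sufficient abundance were higher in the miR-29c inhibitor library by 1.1 or more. Between the libraries numbered 2, 270 of these 359 (75.2%) were again above 1, compared with 48.3% of all 5571 genes, and 131 (36.5%) were again at 1.1 or more, compared with 10.5%. The median ratio was 1.13 where the genes were chosen and 1.06 where they were read.

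In the opposite order, 592 of 5588 genes were higher by 1.1 or more between the libraries numbered 2. Between the libraries numbered 1, 386 of them (65.2%) were above 1, compared with 44.1% of all, and 137 (23.1%) were at 1.1 or more, compared with 6.62%. The median ratio went from 1.15 to 1.03. Lower genes gave like values. Of 656 genes lower by this factor between the libraries numbered 1, 217 (33.1%) were lower by it between those numbered 2, compared with 12.2% of all, and of 672 chosen in the libraries numbered 2, 210 (31.2%) were lower by it in those numbered 1, compared with 11.5%. In both directions the same side was thus found more often than over all genes, and the ratio shrank towards 1 in the libraries that were not used to choose.

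**Figure D5:**
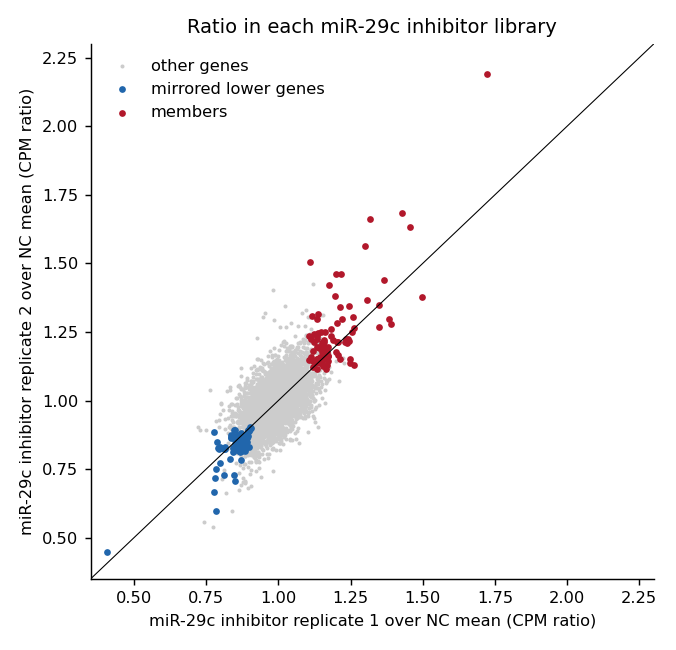
CPM ratio of miR-29c inhibitor replicate 1 (x axis) and replicate 2 (y axis) to the NC inhibitor mean for the 5580 genes, with the members and the mirrored lower genes in colour and the line of equal ratios. Members have a median of 1.17 in replicate 1 and 1.21 in replicate 2, with UBE2S farthest out at 1.72 and 2.19.

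A fit over all genes gives the members' place among calls on the same contrast. With the quasi-likelihood test of edgeR over 20300 genes, 53 of the 90 members had a Benjamini-Hochberg adjusted p below 0.05 and were higher, compared with 0.901% of all genes tested and 1.56% of the 5580 abundant ones. Nothing is read from this count, since the members were chosen by that difference. Fitted log2 fold changes of the members ran from 0.18 to 0.98 with standard errors between 0.03 and 0.09. This fit took the spread between replicates from genes of like abundance. The standard errors therefore do not show the spread of each gene by itself. Of the 87 abundant genes that edgeR called higher, 53 were members (60.9% of the calls and 58.9% of the members), and 34 were not, 5 of them with overlapping groups. With the Wald test of DESeq2 20 of the members had an adjusted p below 0.05, compared with 0.269% of all genes that received one and 0.484% of the abundant ones. Of the 70 mirrored genes edgeR called 22 lower, compared with 0.562% of all genes tested and 1.4% of the abundant ones, and DESeq2 called 2, compared with 0.0122% and 0.0358%. With any 1 library left out, edgeR called fewer of the members, and also fewer higher genes among all those tested.

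The members were spread over the range of identifiers. In 4 equal parts of the 5580 genes by identifier number there were 22, 26, 17 and 25 members among 1395 genes each, or 1.58%, 1.86%, 1.22% and 1.79%. Newer identifiers, numbered from 48302, which were left out by the rule, passed the same limits more often, with 12 of 175 abundant genes higher (6.86%) and 2 lower (1.14%). Of 104 abundant rows with no Ensembl identifier 1 was higher (0.962%) and 2 were lower (1.92%). With all identifiers allowed there were 103 higher genes, of which 90 are the members.

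The study's list of 69 differentially expressed genes, which asks for a change of more than 2-fold, hardly meets the members. Of its genes 44 have an older identifier, and 42 of these fell under the limit on abundance. The remaining 2 were UBE2S and the SEM1-described locus. The study compared 3 libraries per group with DESeq2, while 2 per group were read here, so the 2 choices rest on unlike samples and measures. UBE2S is on the study's list, and its ratio of group means here was 1.96. ZNF771 and ZNF787, zinc finger proteins, KLF16, a zinc finger factor of the Krüppel-like family, TMEM160, a transmembrane protein, and MRPL57, a protein of the mitochondrial ribosome, had older identifiers and steps of 2.07, 1.48, 2.08, 3.67 and 1.63. Their mean CPM was 15.4, 11.0, 2.29, 10.8 and 6.53, short of the 32 CPM asked of a member.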

How the data were processed

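RNA-seq libraries of bovine mammary epithelial cells were read as 1 file per library, 2 of each group. Per the methods of the study, the authors removed low-quality reads and adapters, mapped the rest by HISAT2 to UMD3.1 and counted per gene by featureCounts, and the deposited values are whole-number counts per gene without normalization. Versions, strand setting and options of these steps were not given in those methods or in the labels. The members and lists were chosen with earlier results of these data known. CPM used the plain library total. All genes with at least 1 count in total were fitted by edgeR 4.0.16 (limma 3.58.1, R 4.3.3) with TMM scaling, a group term and the quasi-likelihood test with Benjamini-Hochberg adjustment, and the standard error is the log2 fold change divided by the square root of F. DESeq2 1.42.0 was an alternative and gave no adjusted p for 3936 genes. The rule and the fits were tested on simulated data with changes larger than those of most members, 2-fold for the fits. Changes of the members' usual size were not simulated. Alternatives changed scaling, filters, limits of the rule, libraries and the replicate block. Genes to be named were the members extreme by step or mean CPM, those at the limit, listed genes and the extreme mirrored genes, of which only 2 unnamed identifiers per direction are printed. Symbols came from the study's list, which holds 69 genes, 41 with a symbol. Sequences of the members were not analysed here.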

Additional observations from a re-analysis of the deposited data

How the results depend on the processing

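With 2 libraries per group, the counts were the values that moved most. The number of members was 90, and 154 with a mean CPM of 16 or more, 43 with 64 or more, 293 with a step limit of 5% and 13 with one of 20% in place of 10%, and between 138 and 306 with 1 library left out, where fewer libraries have to be cleared. The mirrored lower genes numbered 70, and 128, 31, 409 and 6 under the same limits, and between 207 and 392 with 1 library left out. The median log2 ratio of the members, 0.25, stayed between 0.22 and 0.28 under every scaling and with each library left out. The same 90 genes were read each time, and the rule places their miR-29c inhibitor libraries above their NC inhibitor libraries. This narrow range is therefore largely a property of the choice. At an adjusted p below 0.05, edgeR called 183 genes higher and 114 lower. The DESeq2 Wald test gave 44 and 2, and the bias-adjusted quasi-likelihood fit 32 and 2. Filters gave 137 and 62 with filterByExpr, and 131 and 63 with at least 10 counts in every library. With 1 library left out, between 55 and 172 genes were higher and between 17 and 146 lower. Among the 90 members edgeR called 53, DESeq2 20, the bias-adjusted fit 14, and edgeR between 21 and 41 with 1 library left out. Where a library is left out, the lone library of its group is assumed to vary like the other group. A replicate block gave 216 higher and 136 lower genes and 62 members called. The labels do not say that a number marks a pair, and with 2 pairs the data cannot settle it. The deviations of same-numbered libraries correlated by 0.05 over 13584 genes with at least 10 counts in every library and by 0.148 over the 5580 abundant older-identifier genes. For the 6 genes given by identifier as members or mirrored genes, 63 of 66 values under alternatives kept their direction and their side of the threshold, and 3, all of ENSBTAG00000008293, kept the direction only. For ENSBTAG00000006882 the side kept was that of no call, with an adjusted p of 0.101 in the main edgeR fit. These 6 genes passed the rule on the same contrast, so that their kept direction is a property of the choice. The causes of the shifts between settings were not tested.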
